A study of Mus musculus with 207 samples.

Results

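The 10 genes that mark contractile smooth muscle were followed through 70 jejunum libraries of C57BL/6 mice. They are Acta2, Actg2, Myh11, Myl9, Tagln, Cnn1, Lmod1, Synpo2, Des and Synm, chosen by name and matched by symbol to the Ensembl identifiers of the count table. All 10 were found among 55536 genes, and all 10 were among the 16992 genes with enough reads to be tested. All 10 fell in jejunum of mice on both fatter diets on WPI and at FAT-40 on CAS, each against the leanest diet. At FAT-55 on CAS 8 of 10 fell, and the call was less secure there, with 5 to 10 members called when 1 library was left out. When mice of 1 identifier stem were left out, 3 to 10 were called. Of all tested genes 16.6% fell at FAT-55 on WPI and 13.3% on CAS, and 13.0% fell at FAT-40 on WPI and 12.4% on CAS. At FAT-55 the median of their log2 fold changes was -1.17 on WPI and -0.67 on CAS, and at FAT-40 it was -1.04 on WPI and -0.92 on CAS. Markers of fat cells were also lower on those diets, and with their level in the fit no member was called. That fit called few genes of any kind: 431 of 16992 at FAT-55 on WPI and 944 on CAS, and 76 at FAT-40 on WPI and 176 on CAS. The fat cell level itself follows diet, so its effect and that of diet cannot be told apart. No member was called between FAT-55 and FAT-40, or between WPI and CAS, at an adjusted p under 0.05. Of all tested genes 0.0294% to 15.3% were called in these comparisons, the average over fat included.

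Smooth muscle cells contract when a calcium signal switches on a kinase that phosphorylates myosin light chains, which lets myosin pull on actin filaments. In the small intestine these cells form the circular and longitudinal coats of the muscularis externa, the thin muscularis mucosae and the walls of blood vessels, and strands of them run up into the villi. Their contractile genes are known targets of serum response factor (Srf) and its partner myocardin (Myocd), which act through a DNA element called the CArG box.

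The mice ate 1 of 6 diets, named by a protein source (WPI or CAS), the protein level 30 in all of them, and a fat level (FAT-20, then FAT-40, then FAT-55). WPI and CAS are read as whey protein isolate and casein from knowledge of the study, and the labels give no unit for either level. There were 12, 12 and 12 libraries on WPI and 11, 12 and 11 on CAS, in the order of the fat levels, each from a mouse with an identifier of its own. The series title asks how protein changes what dietary fat does to weight gain and tissue partitioning. Sex, age, time on diet, batch and the layers of gut wall taken with each piece are not given in the sources used here. The libraries held 17.5 to 23.8 M reads on genes. Replicates 9 and 1 of WPI FAT-20 stood apart, with 282 and 177 CPM of Fabp6, a bile acid carrier typical of ileum, and each fat comparison is given with and without them. Levels are counts per M reads on tested genes after TMM scaling (CPM), and tests are edgeR's quasi-likelihood F-test with Benjamini-Hochberg adjustment over all genes tested, so a gene that rose, fell or was called passed an adjusted p of 0.05.

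For comparison, the same genes were read in the 70 liver libraries, where smooth muscle is scarce, without pairing by mouse. Their jejunum medians lay between 1.11 and 249 CPM, against liver medians of 0.123 to 3.75 CPM. For 9 of the 10 every jejunum library lay above every liver library, and Tagln was the exception. The share of all genes with such a gap between the tissues was not computed, so the count is a description and no check on the label. The lowest jejunum level of Tagln was 0.441 CPM and its highest liver level 0.526 CPM.

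Divided by the length of their merged exons, the members differed widely in level. Averaged over the 70 libraries, Myl9 stood at 96.9 CPM per kb, Acta2 at 78.5, Actg2 at 63.9, Des at 39.5, Myh11 at 36.4 and Cnn1 at 22.3. Synm, Lmod1 and Synpo2 followed at 4.86, 3.69 and 3.25 CPM per kb, and Tagln was lowest at 0.627. The ranges over libraries of neighbours in this order overlapped throughout, for example 34.8 to 377 CPM per kb for Myl9 and 28.0 to 309 for Acta2. Most of Tagln lies under another gene: 1349 of its 1988 exon bases (67.9%) are shared on the opposite strand with exons of Pcsk7 and Gm48529. Per kb of unshared exon Tagln stood at 1.95 CPM. Whether reads were counted by strand is not given in the sources used here, and the part of the overlap in the low Tagln level was not tested. Opposite-strand overlap also touches 6.43% of the exon bases of Synm and 5.86% of those of Des.

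The actins form the thin filament. Acta2 (ENSMUSG00000035783, chromosome 19, 34241090 to 34255590, minus strand, GRCm38) encodes smooth muscle alpha actin, which vascular smooth muscle also makes. On WPI its lowest, median and highest levels were 162, 253 and 679 CPM at FAT-20, 74.3, 128 and 212.5 CPM at FAT-40, and 61.4, 107 and 241 CPM at FAT-55. On CAS they were 174, 245 and 304 CPM at FAT-20, 87.6, 111 and 160.0 CPM at FAT-40, and 65.3, 124 and 247 CPM at FAT-55. Every FAT-40 library on CAS lay below every FAT-20 library on CAS, and Acta2 was the 1 member of 10 whose groups were apart in this comparison, against 0.271% of all tested genes with such a gap downwards. In the other fat comparisons the groups overlapped for all 10 members, beside such a gap downwards in 0.253% of tested genes at FAT-55 on WPI, 0.0353% at FAT-55 on CAS and 0.0118% at FAT-40 on WPI. Acta2 fell by 1.18 ± 0.21 on the log2 scale at FAT-55 on WPI (SE, adjusted p = 1.6e-05), and by 0.80 ± 0.22 on CAS (adjusted p = 0.0042). At FAT-40 it fell by 1.04 ± 0.21 on WPI (adjusted p = 0.00022) and by 0.96 ± 0.21 on CAS (adjusted p = 0.00072).

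Actg2 (ENSMUSG00000059430, chromosome 6, 83512905 to 83536265, minus strand) encodes smooth muscle gamma actin, the form typical of visceral muscle. On WPI its lowest, median and highest levels were 63.5, 172 and 656 CPM at FAT-20, 29.5, 60.6 and 185 CPM at FAT-40, and 26.0, 54.2 and 194 CPM at FAT-55. On CAS they were 74.1, 118 and 168 CPM at FAT-20, 36.6, 52.2 and 81.5 CPM at FAT-40, and 25.3, 66.8 and 162 CPM at FAT-55. The FAT-20 libraries on WPI reached highest and the FAT-55 libraries on CAS were the most spread out of the CAS groups. Actg2 fell at FAT-55 on WPI by 1.52 ± 0.31 on the log2 scale (adjusted p = 0.00012), the largest fold change of the 10 in this comparison. On CAS the log2 fold change at FAT-55 was -0.67 ± 0.32 and missed the threshold (adjusted p = 0.11). At FAT-40 it fell by 1.45 ± 0.31 on WPI and by 1.10 ± 0.31 on CAS (adjusted p = 0.00043 and 0.0072). Acta2 and Actg2 encode nearly identical proteins, so reads that fit both may have been dropped as matching several places, which came to 8.0% of all table entries.

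**Figure D1:**
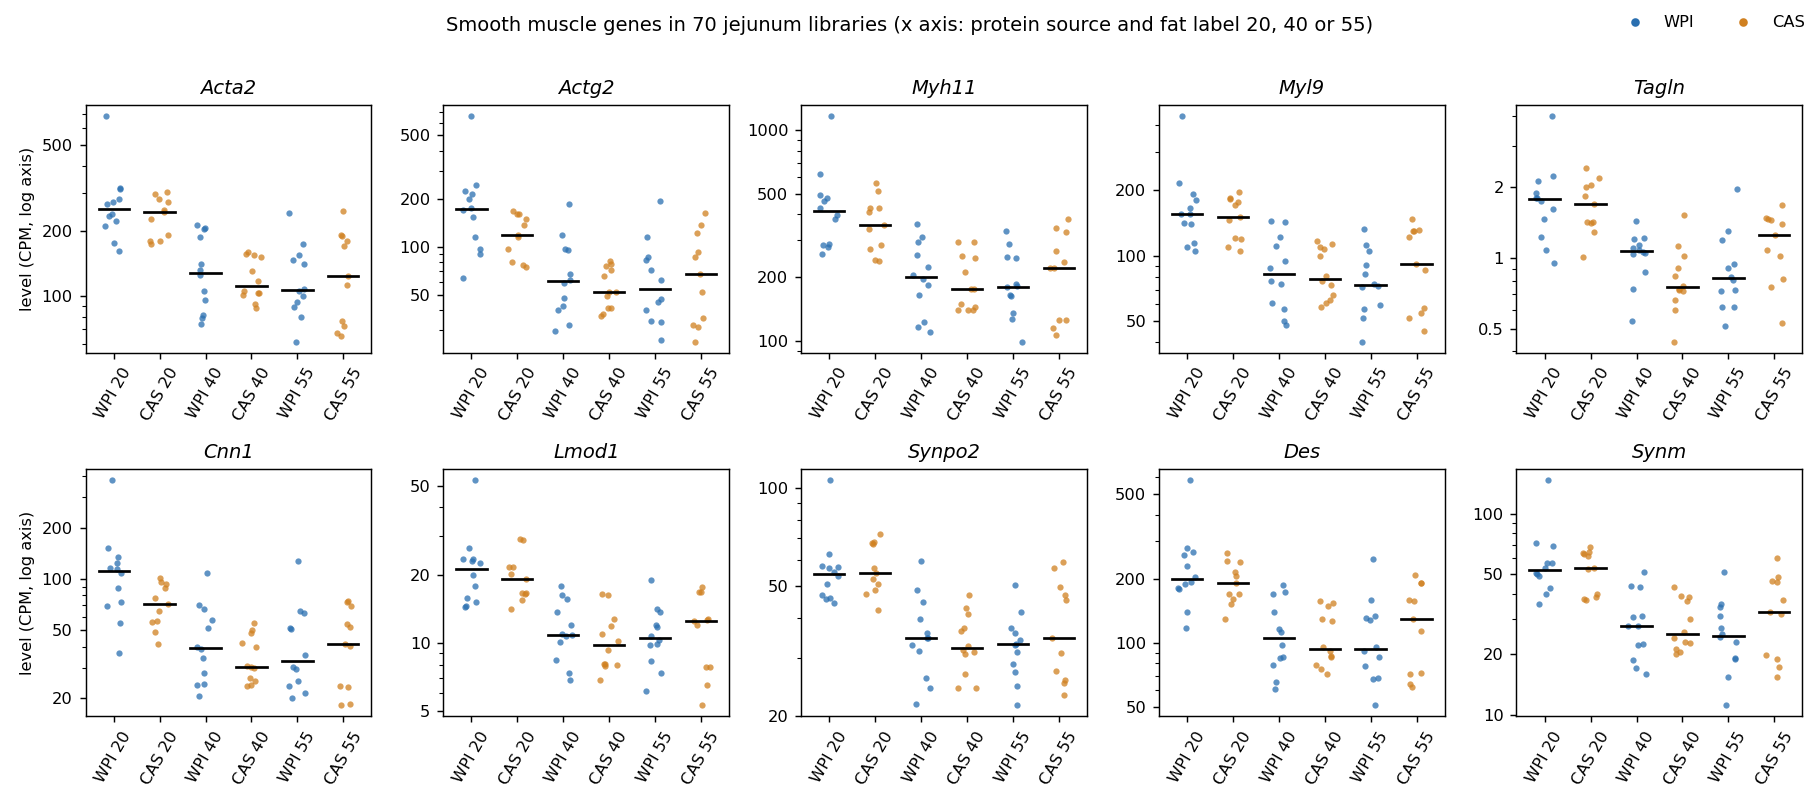
Level of each of the 10 genes in each of 70 jejunum libraries (points, CPM on log axes) by protein source and fat label, with the median of each group as a bar. In every panel the FAT-20 groups sit highest, and the 1 point far above the rest is replicate 9 of WPI FAT-20, with 679 CPM of Acta2 and 656 CPM of Actg2.

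Myosin forms the thick filament. Myh11 (ENSMUSG00000018830, chromosome 16, 14194535 to 14291372, minus strand) encodes the smooth muscle myosin heavy chain. On WPI its lowest, median and highest levels were 257.5, 412.5 and 1161 CPM at FAT-20, 110.0, 200.4 and 357 CPM at FAT-40, and 99.3, 181 and 333 CPM at FAT-55. On CAS they were 239.7, 354 and 561 CPM at FAT-20, 139.8, 176 and 296 CPM at FAT-40, and 106, 223 and 380.2 CPM at FAT-55. Each fatter group overlapped the FAT-20 group of its protein, although its median lay below that group's lowest library. Myh11 fell at FAT-55 by 1.23 ± 0.22 on WPI and 0.72 ± 0.23 on CAS (log2, adjusted p = 1.9e-05 and 0.014). At FAT-40 it fell by 1.12 ± 0.22 on WPI and 0.91 ± 0.22 on CAS (adjusted p = 0.00018 and 0.002). Myl9 (chromosome 2, 156775420 to 156781658, plus strand), the regulatory light chain whose phosphorylation starts contraction, had medians of 156, 82.4 and 73.4 CPM on WPI and 152, 78.4 and 92.1 CPM on CAS at the fat levels 20, 40 and 55. It fell by 1.15 ± 0.20 at FAT-55 on WPI and by 0.67 ± 0.21 on CAS (adjusted p = 1.6e-05 and 0.014).

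A group of actin-binding proteins tunes the filaments. Cnn1 (ENSMUSG00000001349, chromosome 9, 22099216 to 22109630, plus strand) encodes calponin, which binds actin and slows the myosin motor. On WPI its lowest, median and highest levels were 37.0, 112 and 379 CPM at FAT-20, 20.7, 39.6 and 108 CPM at FAT-40, and 20.01, 33.2 and 127 CPM at FAT-55. On CAS they were 41.7, 71.3 and 101 CPM at FAT-20, 23.7, 30.5 and 54.9 CPM at FAT-40, and 18.2, 41.4 and 74.7 CPM at FAT-55. Each fatter group overlapped the FAT-20 group of its protein. The highest library by far was replicate 9 of WPI FAT-20, and the next of its group had 153 CPM. Cnn1 fell at FAT-55 on WPI by 1.42 ± 0.28 on the log2 scale (adjusted p = 1e-04) and at FAT-40 by 1.36 ± 0.28 on WPI and 1.03 ± 0.29 on CAS (adjusted p = 0.00036 and 0.0065). At FAT-55 on CAS its log2 fold change was -0.70 ± 0.29 and missed the threshold (adjusted p = 0.066).

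Tagln (ENSMUSG00000032085, chromosome 9, 45929619 to 45936058, minus strand) encodes transgelin, also called SM22 alpha, an actin-bundling relative of calponin. Its reads were few, 10 to 88 per library, so that each level rests on little. On WPI the lowest, median and highest levels were 0.948, 1.77 and 3.996 CPM at FAT-20, 0.537, 1.07 and 1.44 CPM at FAT-40, and 0.512, 0.820 and 1.96 CPM at FAT-55. On CAS they were 1.01, 1.70 and 2.41 CPM at FAT-20, 0.441, 0.751 and 1.52 CPM at FAT-40, and 0.528, 1.25 and 1.67 CPM at FAT-55. It was called in all 4 fat comparisons, from -1.01 ± 0.20 at FAT-40 on CAS (adjusted p = 0.00013) to -0.53 ± 0.19 at FAT-55 on CAS (adjusted p = 0.035). Pcsk7, which overlaps it, had medians of 55.6, 63.2 and 59.1 CPM on WPI and 54.6, 60.8 and 59.2 CPM on CAS at the fat levels 20, 40 and 55 and was not called in any of the 4 (log2 fold changes 0.07 to 0.13, adjusted p = 0.064 to 0.33). Reads that matched more than 1 gene were a smaller share at FAT-20, with medians of 4.79%, 5.41% and 5.60% on WPI and 4.98%, 5.33% and 5.39% on CAS at the fat levels 20, 40 and 55. Their part in the Tagln result was not tested.

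Lmod1 (chromosome 1, 135324807 to 135368065, plus strand) encodes leiomodin, which starts new actin filaments in smooth muscle. Its medians were 21.3, 10.9 and 10.5 CPM on WPI and 19.3, 9.76 and 12.5 CPM on CAS at the fat levels 20, 40 and 55. Lmod1 was called in all 4 fat comparisons and had the smallest adjusted p of the 10 at FAT-55 on CAS (-0.77 ± 0.20, adjusted p = 0.0022). Synpo2 (chromosome 3, 123076519 to 123236149, minus strand) encodes an actin-bundling protein of smooth and striated muscle. On WPI its lowest, median and highest levels were 44.5, 54.6 and 106 CPM at FAT-20, 21.8, 34.8 and 59.6 CPM at FAT-40, and 21.6, 33.2 and 50.2 CPM at FAT-55, and its CAS medians were 54.9, 32.4 and 34.7 CPM. Among the 10, Synpo2 had the smallest fold change in both WPI comparisons, -0.77 ± 0.15 at FAT-55 (adjusted p = 4.7e-05) and -0.65 ± 0.15 at FAT-40 (adjusted p = 0.00083). It also had the smallest spread within diets, and its fold changes on CAS were -0.56 ± 0.15 at FAT-55 and -0.75 ± 0.15 at FAT-40 (adjusted p = 0.0044 and 0.00021).

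The intermediate filament genes fell as well. Des (chromosome 1, 75360329 to 75368579, plus strand) encodes desmin, the main intermediate filament of muscle, and Synm (chromosome 7, 67730160 to 67759742, minus strand) encodes synemin, which assembles with desmin. Des had medians of 198, 105 and 93.4 CPM on WPI and 190.5, 93.7 and 129 CPM on CAS at the fat levels 20, 40 and 55. Synm had medians of 52.4, 27.7 and 24.8 CPM on WPI and 54.0, 25.1 and 32.6 CPM on CAS. At FAT-55 on WPI, Des fell by 1.08 ± 0.22 and Synm by 1.19 ± 0.21 (log2, adjusted p = 0.00014 and 1.9e-05). At FAT-55 on CAS they fell by 0.59 ± 0.23 and 0.64 ± 0.22 (adjusted p = 0.046 and 0.024), and the FAT-55 libraries spread from 62.1 to 208 CPM of Des against 129 to 263 CPM at FAT-20.

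Counted over the 10 genes, all 10 fell at FAT-55 on WPI, where 16.6% of all tested genes fell and 14.2% rose. On CAS 8 fell at FAT-55, where 13.3% of all tested genes fell and 14.4% rose. At FAT-40 all 10 fell on WPI and all 10 on CAS, where 13.0% and 12.4% of tested genes fell and 12.7% rose on each. The member with the largest change dropped by 65.1% and the one with the smallest dropped by 41.5% at FAT-55 on WPI. At FAT-40 on WPI Synpo2 dropped by 36.3% and Actg2 dropped by 63.5%, and at FAT-40 on CAS Synpo2 dropped by 40.6% and Actg2 dropped by 53.2%, the smallest and largest changes there. The median log2 fold change over all tested genes lay between -0.03 and -0.01 in these 4 comparisons. The FAT-55 and FAT-40 comparisons of a protein share its FAT-20 libraries, so their members' values are not separate evidence. In pieces of whole tissue, fewer smooth muscle cells and less smooth muscle RNA per cell cannot be told apart.

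**Figure D2:**
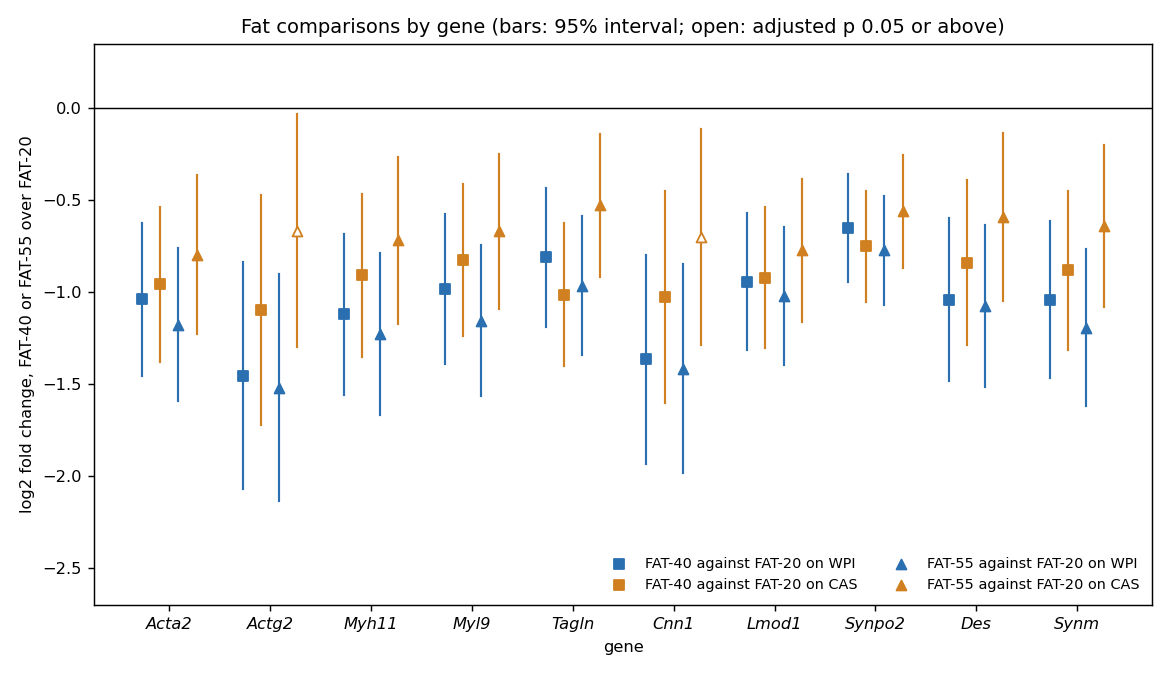
Log2 fold change of each gene at FAT-40 or FAT-55 over FAT-20 on each protein (points) with 95% intervals (bars), and open points where the adjusted p was 0.05 or above. All 40 points lie below 0, and the 2 open ones are Actg2 at -0.67 and Cnn1 at -0.70 for FAT-55 on CAS.

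FAT-55 and FAT-40 were not told apart by any member. On WPI all 10 log2 fold changes of FAT-55 over FAT-40 were negative, from -0.17 to -0.04, with adjusted p of 0.81 to 0.98 (0 members with an unadjusted p under 0.05), and 0.653% of all tested genes were called. On CAS all 10 were positive, from 0.15 to 0.49, with adjusted p of 0.70 to 0.96, and 0.0294% of tested genes were called. The CAS intervals reached down to -0.26 and up to 1.05, so that a further fall was bounded more closely than a rise. Tagln was the member with an unadjusted p under 0.05 (0.49 ± 0.20, p = 0.017, adjusted p = 0.70). DESeq2 called 0 members in either comparison.

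No member was called between the protein sources at any fat level, where few of all tested genes were called. The 95% intervals of the 10 members together spanned -0.30 to 1.34 at FAT-20, -0.40 to 0.97 at FAT-40 and -0.80 to 0.60 at FAT-55. Differences within these intervals are not excluded. At FAT-20 the log2 fold changes of WPI over CAS ran from -0.01 to 0.74 with 0 members called, beside 6.23% of tested genes, and at FAT-40 from 0.03 to 0.41 with 0 called, beside 0.571%. At FAT-55 they ran from -0.37 to 0.03 with 0 called, beside 3.70%, and averaged over fat from -0.05 to 0.39 with 0 called, beside 15.3%. An unadjusted p under 0.05 was reached by 2 members at FAT-20, 0 at FAT-40, 0 at FAT-55 and 1 in the average, and DESeq2 called 0 in each. At FAT-20 the 2 members were the visceral actin and calponin: Actg2 was 0.72 ± 0.31 higher on WPI (adjusted p = 0.17) and Cnn1 0.74 ± 0.29 higher (adjusted p = 0.11). Leaving out WPI FAT-20 replicates 4, 5 and 6, whose identifiers share a stem, brought Cnn1 past the threshold at FAT-20 (0.93, adjusted p = 0.041) and in the average (0.46, adjusted p = 0.047). Removal of WPI FAT-20 replicates 1 and 9 moved the values the other way. At FAT-20 the members then ran from -0.132 to 0.413, with a median of 0.016 against 0.235. The lowest adjusted p there was 0.50, and 0 members were called. In the average they ran from -0.114 to 0.285, with a lowest adjusted p of 0.24 and 0 called.

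Whether the fat response differed between the proteins was tested as an interaction. The FAT-55 response was more negative on WPI than on CAS for all 10 members, by -0.86 on the log2 scale for Actg2 to -0.21 for Synpo2. None was called (adjusted p = 0.84 to 0.95, 0 with an unadjusted p under 0.05, 0 by DESeq2), and 0% of all tested genes were called. The intervals of the 10 differences together spanned -1.73 to 0.29. Without WPI FAT-20 replicates 1 and 9 the differences shrank to between -0.505 and -0.04, with a median of -0.257 against -0.485, and 0 were called. For the FAT-40 response the differences ran from -0.36 to 0.20 with 8 of 10 negative and 0 called (adjusted p = 0.92 to 0.99, 0 with an unadjusted p under 0.05, 0 by DESeq2), beside 0.0118% of tested genes. Without replicates 1 and 9 the FAT-40 differences ran from -0.011 to 0.385, with a median of 0.055 against -0.158, and 0 were called.

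The members varied from mouse to mouse within a diet, and did so together. The SD of log2 CPM within diets was largest for Actg2 (0.75) and Cnn1 (0.69), lay between 0.44 and 0.55 for 7 members and was smallest for Synpo2 (0.36). Over all libraries the highest level was 25.9 times the lowest for Actg2, 20.8 times for Cnn1 and 4.90 times for Synpo2. As a description over the 70 libraries, with each library's diet mean removed, the 36 pairs of members without Tagln had Pearson correlations of 0.82 to 0.98, and the closest pair was Actg2 and Cnn1 (0.98). The 9 pairs with Tagln ran from 0.57 to 0.69, beside its 10 to 88 reads per library. All members share each library's depth and scaling. Without WPI FAT-20 replicate 9 the ranges were 0.80 to 0.98 and 0.50 to 0.65.

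Ratios within a library show which members moved more than others. These ratios were chosen after the values had been seen and carry no test. The CPM ratio of Actg2 to Synpo2 had a median of 3.04 at FAT-20, 1.67 at FAT-40 and 1.73 at FAT-55 on WPI, and of 2.32, 1.64 and 1.66 on CAS. The ratio of Actg2 to Acta2 had medians of 0.608, 0.471 and 0.478 on WPI and 0.534, 0.461 and 0.478 on CAS. Ranges of these ratios overlapped between all diets, for example 0.387 to 0.812 for Actg2 over Acta2 at FAT-55 on WPI and 0.393 to 0.966 at FAT-20. Actg2 thus took a larger share of the pair in the FAT-20 medians, and by less than the spread of the libraries.

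A few libraries set the extremes. WPI FAT-20 replicate 9 ranked first of 70 for all 10 members, with a summed member level of 4204 CPM, against 1960 CPM in the next library. Replicate 1, the other library with high Fabp6, had a summed member level of 1616 CPM, inside the range of its group. Without both libraries the members called lower were 10 at FAT-55 on WPI, 9 at FAT-55 on CAS, 10 at FAT-40 on WPI and 10 at FAT-40 on CAS, with medians of -0.96, -0.68, -0.82 and -0.92. At the low end, WPI FAT-55 replicate 1 ranked among the last 5 of 70 for 9 members, and CAS FAT-55 replicate 6 and WPI FAT-40 replicate 8 for 8 each.

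The count at FAT-55 on CAS rested on less than the other 3. Leaving out 1 library at a time gave 5 to 10 members called, with 5 without CAS FAT-55 replicate 2 and 5 without replicate 6, and Tagln, Synm and Des were the calls lost in each case. Leaving out all mice whose identifiers share a stem gave 3 to 10 called, and summing the reads of such mice gave 4. In the other 3 fat comparisons every removal of 1 library kept all 10 members past the threshold, and removal of 1 stem kept 8 to 10 at FAT-40 on CAS and all 10 on WPI. Sums by stem called 7 at FAT-40 on CAS, where the highest adjusted p was 0.078, and all 10 in both WPI comparisons. CAS FAT-55 was also the group in which the mean member level varied most, with an SD of 0.65 on the log2 scale. WPI FAT-20, with replicate 9 in it, had an SD of 0.57, and CAS FAT-20 the smallest, 0.31.

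The genes whose mouse-to-mouse pattern was most like the members' were mostly other contractile genes. Among 10727 further genes averaging 5 CPM or more, the 12 closest by Pearson correlation with the mean deviation of the members over the 70 libraries had correlations of 0.93 to 0.98. They were Tpm2 (a tropomyosin), Csrp1, Flna (filamin A), Dmpk, Cald1 (caldesmon), Jph2, Pgm5, Pdlim3, Mrvi1, Atp2b4, Smtn (smoothelin) and Ppp1r12b, a subunit of myosin phosphatase. A list of contractile partners held 9 of the 12. At FAT-55 their log2 fold changes ran from -1.34 for Tpm2 to -0.82 for Ppp1r12b on WPI and from -0.83 for Pgm5 to -0.53 for Dmpk on CAS. All 12 were called lower in all 4 fat comparisons, beside 12.4% to 16.6% of all tested genes. The 12 were picked for likeness to the members in these same libraries, so their calls are not separate evidence.

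**Figure D3:**
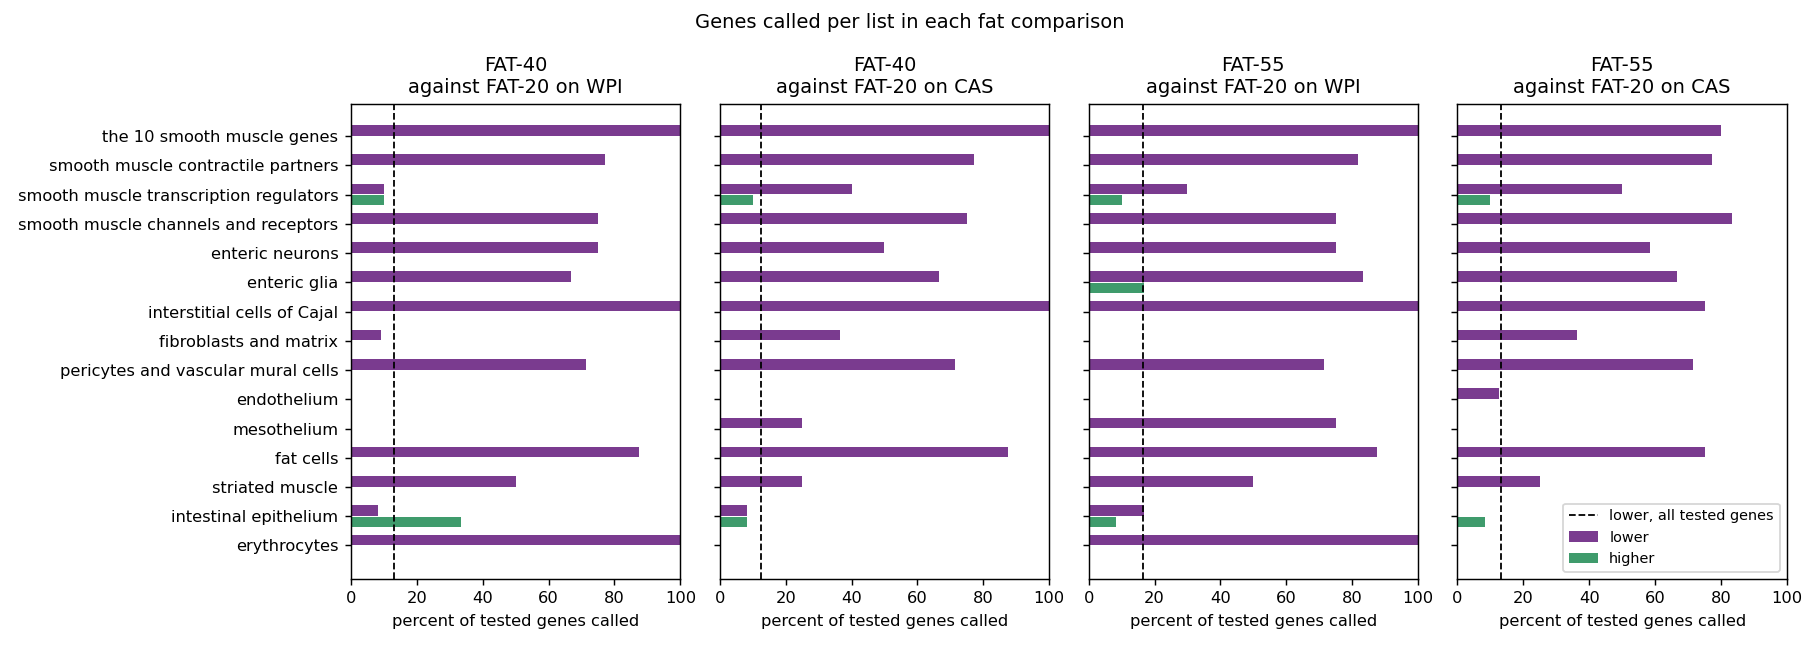
Percent of the tested genes of each list called lower (purple) or higher (green) in each fat comparison, with the percent of all tested genes called lower as a dashed line. Apart from the smooth muscle transcription regulators, lists of muscle layer cells and of fat cells lie far right of the dashed line in all 4 panels. The regulators have 1 of 10 tested genes called lower at FAT-40 on WPI, beside 13.0% of all tested genes. The endothelium list has 1 gene called lower in 1 panel.

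The wider smooth muscle programme moved the same way in most of its genes. Of 22 contractile partners 18 fell at FAT-55 on WPI and 17 on CAS, and 17 fell at FAT-40 on each protein, with medians of -0.87, -0.62, -0.81 and -0.74. Smtn, which stabilises contractile actin, fell by 1.01 ± 0.14 at FAT-55 on WPI (adjusted p = 5.1e-07), and Flna by 1.14 ± 0.18 (adjusted p = 3.6e-06). Mylk, the myosin light chain kinase, moved less and was called on WPI (-0.31 ± 0.08 at FAT-55, adjusted p = 0.003) and not on CAS (-0.14 ± 0.09, adjusted p = 0.24), and the difference between the proteins was not called (-0.17 ± 0.12, adjusted p = 0.89). Vcl (vinculin) was the highest of the list, with 0.18 ± 0.09 on WPI and 0.19 ± 0.10 on CAS at FAT-55 (adjusted p = 0.14 each). Other gut cells also make Mylk, Tpm1, Vcl and Actn1. Of 12 tested channels and receptors of smooth muscle 9 fell at FAT-55 on WPI and 10 on CAS, and 9 fell at FAT-40 on each protein. They included Cacna1c, the L-type calcium channel (-0.98 ± 0.17 at FAT-55 on WPI, adjusted p = 1.4e-05), and Chrm2, the muscarinic M2 receptor (-0.94 ± 0.20, adjusted p = 0.00028). Chrm3, the M3 receptor that gut epithelium also makes, was not called (-0.11 ± 0.11 at FAT-55 on WPI, adjusted p = 0.47).

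Fewer of the regulators of smooth muscle genes were called, and at FAT-40 on WPI their shares lay near those of all tested genes. Of 10 tested regulators 3 fell at FAT-55 on WPI and 5 on CAS, and 1 fell at FAT-40 on WPI and 4 on CAS, with 1 higher in each comparison. Over all tested genes the shares lower were 16.6%, 13.3%, 13.0% and 12.4% in that order, and the shares higher 14.2%, 14.4%, 12.7% and 12.7%. Myocd fell by 0.72 ± 0.20 at FAT-55 on WPI (adjusted p = 0.0033) and by 0.71 ± 0.20 on CAS (adjusted p = 0.0066), and it was called at FAT-40 on both. Srf was called at FAT-55 on WPI (-0.30 ± 0.07, adjusted p = 0.00082). The gene called higher was Gata6, a factor that epithelium and muscle both make, with 0.47 ± 0.11 at FAT-55 on WPI and 0.42 ± 0.12 on CAS (adjusted p = 8e-04 and 0.0053).

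Promoter sequence of 7 of the 10 members was at hand, in windows from 250 bases before to 50 after the start (RefSeq, GRCm38.p6). Actg2, Myh11 and Tagln are named only. Each window was searched on both strands for the CArG box (CC, then 6 bases that are A or T, then GG) and for CArG-like elements, in which 5 of the 6 middle bases are A or T. The CArG box was found in 1 window, that of Myl9, against 1.63% of 32851 windows. A CArG box or a CArG-like element was found in 3 of 7 windows, those of Acta2, Myl9 and Synm, against 9.98% of all windows. These 3 windows are shown 5′ to 3′ with the matches in capitals. Only that of Myl9 holds the CArG box as defined here, and those of Acta2 and Synm hold CArG-like elements alone. Whether Srf binds any of these matches was not tested. The Acta2 window is chr19:34255324-34255623 (minus strand), with CCCTATATGG from base -84 and CCTTGTTTGG from base -34. That of Myl9 is chr2:156775214-156775513 (plus strand), with the CArG box CCTAATAAGG from base -161 and CCTTGTAAGG from base -99. That of Synm is chr7:67759693-67759992 (minus strand), with CCTCATAAGG from base -239. The windows of Cnn1, Des, Lmod1 and Synpo2 held no such letters, which says nothing about the factor.
Acta2: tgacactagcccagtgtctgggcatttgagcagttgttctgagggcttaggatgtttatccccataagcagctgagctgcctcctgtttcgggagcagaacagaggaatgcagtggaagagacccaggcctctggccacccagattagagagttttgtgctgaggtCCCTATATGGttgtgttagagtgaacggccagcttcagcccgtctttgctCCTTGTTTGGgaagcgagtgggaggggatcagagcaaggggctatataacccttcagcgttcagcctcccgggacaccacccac
Myl9: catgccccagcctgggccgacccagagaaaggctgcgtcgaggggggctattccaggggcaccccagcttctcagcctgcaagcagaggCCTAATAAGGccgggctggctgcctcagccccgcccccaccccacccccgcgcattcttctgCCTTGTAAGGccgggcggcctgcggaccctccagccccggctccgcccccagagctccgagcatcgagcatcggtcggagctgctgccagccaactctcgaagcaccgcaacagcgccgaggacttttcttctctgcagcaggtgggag
Synm: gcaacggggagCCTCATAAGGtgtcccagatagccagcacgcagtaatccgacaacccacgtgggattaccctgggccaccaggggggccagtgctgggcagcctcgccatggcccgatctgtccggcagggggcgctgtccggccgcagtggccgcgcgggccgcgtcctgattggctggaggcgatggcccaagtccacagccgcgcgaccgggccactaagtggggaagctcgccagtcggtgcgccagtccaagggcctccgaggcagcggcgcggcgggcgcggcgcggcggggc

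Many markers of the other cells of the muscle layer also fell, and a part of each list of neurons and glia did not. Of 12 enteric neuron genes 9 fell at FAT-55 on WPI and 7 on CAS, and 9 fell at FAT-40 on WPI and 6 on CAS. Nos1, the neuronal nitric oxide synthase of inhibitory motor neurons, fell by 1.41 ± 0.26 at FAT-55 on WPI (adjusted p = 2.6e-05) and by 0.96 ± 0.27 on CAS (adjusted p = 0.0056). All 4 tested genes of the interstitial cells of Cajal, the pacemaker cells of the gut wall, fell at FAT-55 on WPI and at FAT-40 on both proteins, and 3 fell at FAT-55 on CAS. Kit, their receptor tyrosine kinase, fell by 0.57 ± 0.12 at FAT-55 on WPI (adjusted p = 0.00025). Of 6 tested enteric glia genes 5 fell at FAT-55 on WPI, with 1 higher, and 4 fell in each of the other 3 comparisons. The summed glia level went the other way, with medians of 611 CPM at FAT-55 on WPI and 547 CPM on CAS, against 479 and 451 CPM at FAT-20, and nearly all of it was Erbb3 (median 528 CPM over the 70 libraries), which gut epithelium also makes. With diet means removed, the mean log2 level of the neuron list correlated with that of the members at r = 0.79 (Spearman 0.77, 70 libraries, 0.77 without the 2 farthest), that of the Cajal list at 0.78 and that of the glia list at 0.67. The summed neuron level ran from 38.8 to 81.6 CPM at FAT-55 on WPI, against 51.6 to 152 CPM at FAT-20, and from 29.2 to 91.5 CPM at FAT-55 on CAS, against 52.8 to 101 CPM at FAT-20.

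Fat cell markers differed between the same diets by more. Of 8 fat cell genes 7 fell at FAT-55 on WPI and 6 on CAS, and 7 fell at FAT-40 on each protein, with median log2 fold changes of -3.99, -2.75, -3.29 and -4.82. The summed level of the 8 ran from 82.8 to 173 CPM at FAT-55 on WPI and 96.9 to 237 CPM at FAT-40, against 136 to 734 CPM at FAT-20. On CAS it ran from 83.6 to 165 CPM at FAT-55 and 76.3 to 149 CPM at FAT-40, against 90.1 to 505 CPM at FAT-20. No fat cell gene had a median of 0 in a FAT-20 group, while 3 had one at FAT-55 and 4 at FAT-40 on WPI, and 5 at FAT-55 and 4 at FAT-40 on CAS. Much of the summed level was Cidec (51.4 to 210 CPM over the 70 libraries, median 86.8) and Fabp4 (median 26.8), so the sum is not a measure of fat cells alone. Adipoq, the adiponectin gene, reached 73.4 CPM in its highest library and was at 0 in 31 of 70. Diet held 70.5% of the variance of the mean log2 level of the 8 genes and 47.6% of that of the 10 members.

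With the mean log2 level of the 8 fat cell genes as a covariate, no member was called in any of the 4 fat comparisons. The member medians became -0.34 at FAT-55 on WPI, 0.03 at FAT-55 on CAS, -0.26 at FAT-40 on WPI and -0.11 at FAT-40 on CAS, with SEs of 0.17 to 0.39 in place of 0.15 to 0.32. The same covariate left 431 genes called at FAT-55 on WPI and 944 on CAS, and 76 at FAT-40 on WPI and 176 on CAS, against 5231, 4711, 4378 and 4264 without it. Because the covariate itself follows diet, its effect and that of diet cannot be told apart in this fit. Within diets the fat cell list correlated with the members at r = 0.50 (Spearman 0.49, 70 libraries, 0.44 without the 2 farthest), and the neuron list at 0.79. The 2 values are not on the same footing. In the FAT-40 and FAT-55 groups 3 to 5 of the 8 fat cell genes had a median of 0, and 0 of the neuron genes did. The plot of summed levels shows WPI FAT-20 replicate 11 with 1960 CPM of the members beside 136 CPM of the 8 listed fat cell genes. Replicate 1 had 1616 beside 734 CPM.

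**Figure D4:**
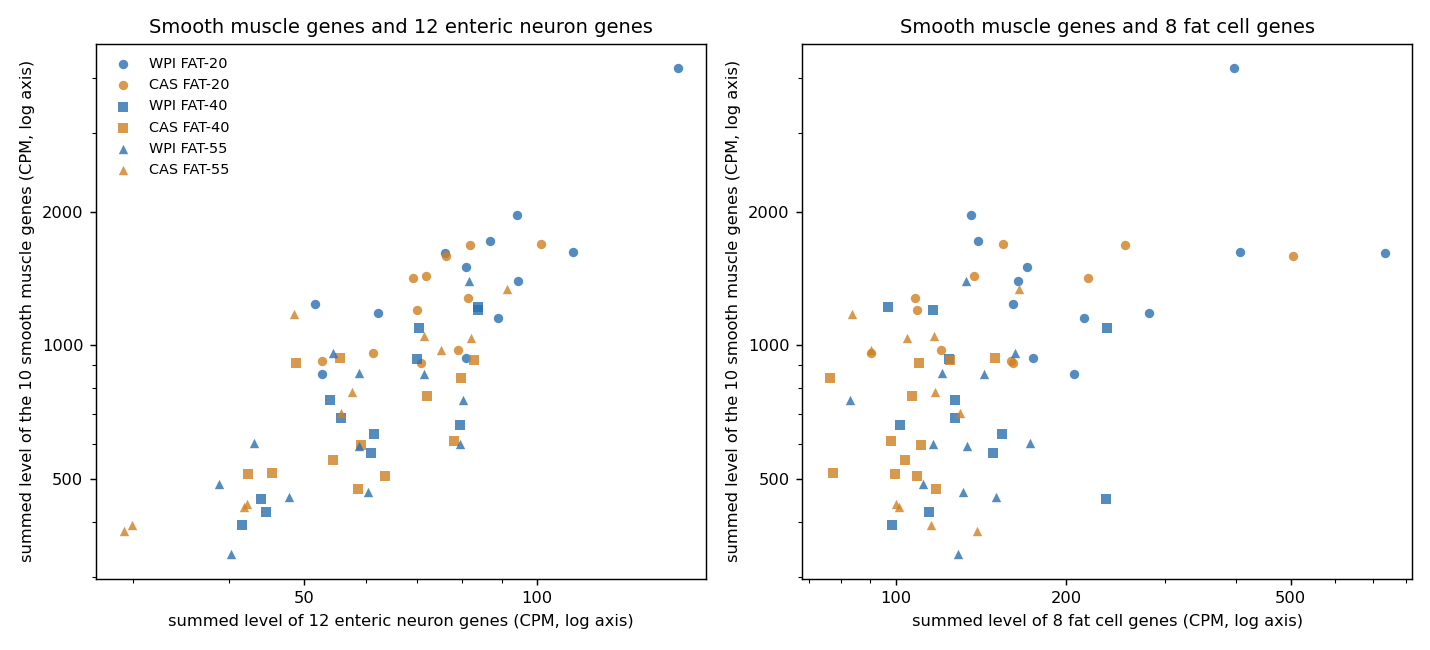
Summed level of the 10 smooth muscle genes (y axis) against that of 12 enteric neuron genes (left) and 8 fat cell genes (right) in 70 jejunum libraries, in CPM on log axes, with colour for the protein and shape for the fat label. Libraries run along a band on the left (r = 0.79 of mean log2 levels within diets) and scatter more on the right (r = 0.50). In the FAT-40 and FAT-55 groups 3 to 5 of the 8 fat cell genes had a median of 0.

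Other cell types of the piece gave mixed values. Of 7 tested pericyte and vascular mural cell genes 5 fell in each of the 4 comparisons, among them Mcam (-0.70 ± 0.11 at FAT-55 on WPI, adjusted p = 4.1e-06), a list that vascular smooth muscle shares in part. Of 8 endothelium genes 1 fell, Kdr at FAT-55 on CAS (-0.36 ± 0.11, adjusted p = 0.0077). Fibroblast and matrix genes fell in 4 of 11 at FAT-55 on CAS and 4 at FAT-40 on CAS, and in 0 and 1 on WPI. All 5 erythrocyte genes fell at FAT-55 and at FAT-40 on WPI and 0 on CAS, a difference between the proteins that was called for no gene at FAT-55, and their summed level ran from 13.1 to 27.6 CPM at FAT-55 on WPI, against 15.4 to 60.6 CPM at FAT-20. Of 4 tested mesothelium genes 3 fell at FAT-55 on WPI, 0 at FAT-55 on CAS, 0 at FAT-40 on WPI and 1 at FAT-40 on CAS. Of 12 epithelium genes 1 rose and 2 fell at FAT-55 on WPI, 1 rose and 0 fell at FAT-55 on CAS, 4 rose and 1 fell at FAT-40 on WPI, and 1 rose and 1 fell at FAT-40 on CAS. Of 4 tested striated muscle genes, Ckm fell in all 4 comparisons (-1.22 ± 0.24 at FAT-55 on WPI, adjusted p = 9.3e-05, and -0.84 ± 0.25 on CAS, adjusted p = 0.0091). Tnnt2 was called in both WPI comparisons (-1.21 ± 0.20 at FAT-55, adjusted p = 4.8e-06), with -0.28 ± 0.20 at FAT-55 on CAS (adjusted p = 0.31), and the difference between the proteins was not called (adjusted p = 0.46). Ttn (-0.03 on WPI and 0.24 on CAS at FAT-55) and Acta1 (-0.74 and -0.19) were not called in any of the 4, and Pvalb was at 0 in all 70 libraries and Myh4 in 68. Exocrine pancreas genes had too few reads to be tested, at summed medians of 0.07 to 0.19 CPM. The part of the neuron, glia, Cajal, fat, mesothelium and blood markers in the members' result was not tested beyond the covariate for fat cells.

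**Figure D5:**
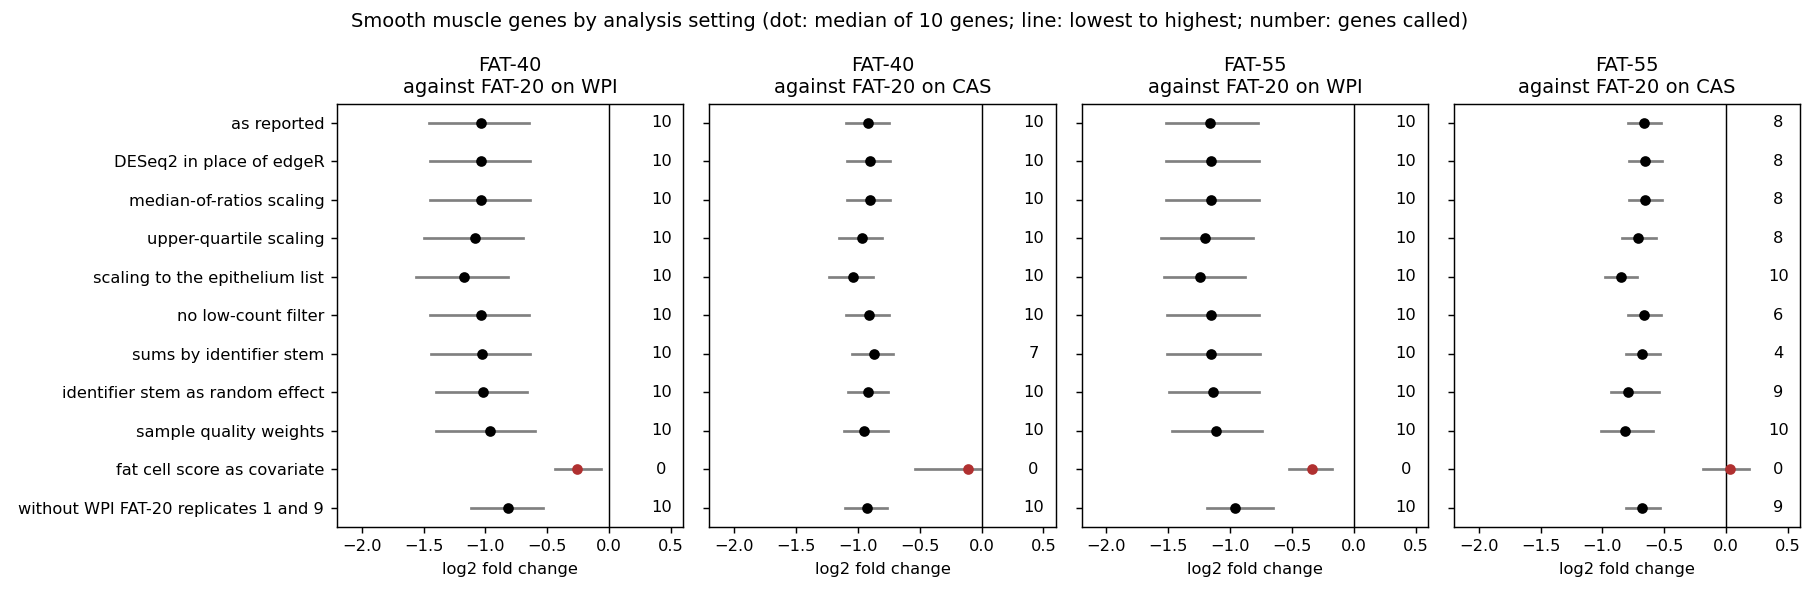
Median (dot) and lowest to highest (line) log2 fold change of the 10 genes in each fat comparison under each analysis setting, with the number of genes called at the right of each panel. The fat cell covariate is the 1 setting with 0 genes called, and its medians lie between -0.34 and 0.03.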

How the data were processed

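RNA of jejunum was sequenced in 70 libraries, and the tables the authors deposited for jejunum and liver hold counts of whole reads on each gene, not scaled. The submitters' processing notes name the build GRCm38, STAR, Trim Galore 0.61, cutadapt, FastQC and DESeq2 1.24.0. The strand setting and annotation release are not given in the sources used here. Entries that name no gene were left out of library sizes: reads at several places (8.0% of all entries), on no gene (6.34%), ambiguous (5.23%) and unmapped (3.45%).

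Libraries were grouped by diet label. With edgeR 4.0.16 (R 4.3.3), low genes were dropped by filterByExpr at a minimum count of 10 and a minimum total of 15, and libraries were scaled by TMM. All 70 libraries entered 1 quasi-likelihood fit that had a coefficient for each diet and no covariate. Genes were called at a Benjamini-Hochberg adjusted p under 0.05 over 16992 genes. The 12 comparisons were not adjusted for one another. Gene positions and exon lengths came from GENCODE M21 on GRCm38. Log2 CPM carry a prior count of 2, and intervals are 95%.

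The members and the other gene lists were chosen with earlier results of these data known. All members are named, with up to 3 genes of each list by adjusted p in the comparison described and the 12 genes most like the members. Mylk, Vcl, Chrm2, Chrm3, Pcsk7, Fabp6, Adipoq, Cidec, Fabp4, Pvalb and Myh4 were named after their values were seen. Alternatives were DESeq2 1.42.0, other scalings, no low-count filter, identifier stems (the mouse identifier without its last digit, 24 stems, meaning not given in the labels) summed or as a random effect in limma 3.58.1, quality weights, a fat cell covariate, and removal of single libraries, stems, or WPI FAT-20 replicates 1 and 9.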

Additional observations from a re-analysis of the deposited data

How the results depend on the processing

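Member counts kept within 1.5 times under DESeq2, 3 other scalings, no low-count filter, a random effect for stem (consensus correlation 0.114) and quality weights. Of 560 values of single members under alternatives 491 kept direction and call, 53 lost the call, 10 gained it and 6 reversed. With the fat cell covariate 0 members were called in each fat comparison. Over all tested genes it called 431 at FAT-55 on WPI and 944 on CAS, and 76 at FAT-40 on WPI and 176 on CAS. At FAT-55 on CAS, Actg2 (0.19), Myh11 (0.029), Myl9 (0.035), Synm (0.041), Cnn1 (0.14) and Des (0.16) changed sign under this covariate, and the cause was not tested. Their SEs were 0.24 to 0.37 and their adjusted p 0.75 to 0.96 by the F-test, so no rise was shown. At FAT-55 on CAS, sums by stem called 4 members (7 at FAT-40 on CAS), removal of 1 library 5 to 10, and removal of 1 stem 3 to 10. Removal of 1 stem gave 0 to 1 for WPI against CAS at FAT-20 and 0 to 1 averaged over fat. Removal of WPI FAT-20 replicates 1 and 9 and of single stems was chosen after seeing the data.

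Sums by stem called 3411 and 3383 genes in all at FAT-55 on WPI and CAS, and 2091 and 2121 at FAT-40, against 5231, 4711, 4378 and 4264. With scaling to the epithelium list the median of all genes was -0.18 at FAT-55 on WPI and -0.22 on CAS, against -0.03 and -0.01 as reported, -0.21 at FAT-40 on WPI and -0.15 on CAS, against -0.02 and -0.03, and -0.12, -0.20 and -0.13 for WPI against CAS at FAT-20, at FAT-40 and averaged, against -0.01 to 0.00. It called 10 members in each fat comparison, with medians of -1.24, -0.85, -1.18 and -1.04 in the same order, with 3775 lower and 678 higher genes at FAT-55 on WPI, 4791 and 470 on CAS, 4774 and 284 at FAT-40 on WPI and 2447 and 531 on CAS. Upper-quartile scaling called 3572 lower and 1906 higher at FAT-55 on WPI, 2924 and 1800 on CAS, and 3029 and 1503 at FAT-40 on WPI and 2903 and 1517 on CAS, against 2815 and 2416, 2264 and 2447, 2215 and 2163, and 2111 and 2153. Elsewhere the count of all genes called ran from 0 to 16 for FAT-55 against FAT-40 on CAS, 0 to 469 on WPI, 227 to 1252, 12 to 211 and 65 to 740 for WPI against CAS in the order of fat, 1250 to 5206 averaged, and 0 to 6 and 0 to 15 for the FAT-55 and FAT-40 interactions. No paired analysis was possible because the labels give no replicate numbers that groups share. Depth limits Tagln alone among the members, at 10 to 88 reads per library.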
